A study of Bos taurus with 2 samples.

Results

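Cyclins, cyclin-dependent kinases (CDKs) and genes of mitotic division were followed by RNA sequencing in bovine seminiferous tubules, the tubes of the testis in which sperm form, from a calf of 3 months and a calf of 9 months. The genes were chosen by symbol, as the lettered cyclins A to H, J, K, O, T and Y with the cyclin B1 interactor CCNB1IP1, the numbered CDKs, all genes whose symbol starts with CDC and a digit, the numbered MCM genes, the BUB1, BUB1B and BUB3 genes, the Aurora kinases and the Polo-like kinases PLK1 to PLK4, with CCND2 left out. The rule found 87 of the 24616 listed genes under 86 symbols, since CDC42BPA was listed under 2 gene identifiers. AURKC, the Aurora kinase of germ cells, and cyclin H were not found under those symbols and are not analysed here. Pieces of tubule were taken from removed testes and flash frozen, and nothing in the labels gives a breed, a treatment or a genotype for either calf. Each age was represented by 1 library, so that none of the differences has a replicate check and each describes a pair of libraries rather than the ages.

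A CDK is inactive until a cyclin binds it, and cyclins are made and destroyed in turn as a cell copies its DNA and divides. D and E cyclins with CDK4, CDK6 and CDK2 act before and at the start of DNA copying, while A and B cyclins with CDK2 and CDK1 act from DNA copying to cell division. MCM proteins unwind the DNA, CDC25 phosphatases switch CDKs on, BUB proteins hold division until chromosomes are attached, and CDC20 then starts the destruction of the B cyclins. In the testis these genes serve both the mitoses of spermatogonia and somatic cells and the meiotic divisions of spermatocytes, and CCNA1, the germ cell form of cyclin A, is known from male meiosis.

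The younger calf's library (3 months) held 37600534 counts and the older calf's (9 months) 29782234. Levels at the 2 ages are compared in CPM, counts relative to a library size scaled by trimmed means of log ratios (TMM), and levels of different genes within a library in the deposited RPKM, which is per gene length. Brackets give a 95% exact interval that covers counting error only. A call of higher or lower needed a difference of at least 2-fold and an interval that excluded a ratio of 1. The 10 spermatocyte markers examined summed to 40.5 CPM in the younger and 1214 CPM in the older calf, and the 8 spermatid markers to 1.59 and 2487 CPM, with ODF1 at 0 counts in the younger calf. The 8 Sertoli cell markers summed to 8762 and 2117 CPM and the 6 Leydig cell markers to 17759 and 2740 CPM. The 8 spermatogonial markers found summed to 161 and 168 CPM, the 5 leukocyte markers to 297 and 151 CPM and the 4 endothelial markers to 132 and 104 CPM. Of the spermatocyte and spermatid markers all 18 were called higher in the older calf, and of the Leydig markers all 6 lower. The other lists were mixed. Of the spermatogonial markers 3 were higher, among them DMRTB1 at 76.4-fold and SALL4 at 4.34-fold, and 1 was lower. Of the Sertoli markers 5 were lower and 1, CLDN11, was 49.6-fold higher. Of the leukocyte markers 2 were lower and AIF1 was 3.30-fold higher, and of the endothelial markers 3 were lower and VWF was 5.91-fold higher. These markers are named after their values were seen. The part of these shifts in the results below was not tested, and in bulk tissue fewer cells of a type cannot be told apart from less RNA per cell. Leydig cells lie between the tubules, so the pieces need not have held tubule alone. How much other tissue each piece held was not measured and cannot be told apart from age.

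Many genes of late division were higher in the older calf's library: CCNB1, CCNB2, CDK1, AURKA, PLK1, BUB1, BUB1B, CDC20 and CDC25C were several times more abundant, and CCNA1 was 41.1-fold more abundant [31.3 to 55.2]. CCND3 and CDK4, of early division, were 4.46-fold [4.02 to 4.96] and 2.53-fold [2.34 to 2.73] less abundant. Other genes of early division did not share that direction. CCNE2, CDK6 and CDK2 were 2.80-fold, 3.63-fold and 2.63-fold more abundant, and CCND1 and CCNE1 lay within 2-fold. Of the 86 genes with at least 10 counts over both libraries, 30 (34.9%) were called higher in the 9-month library, where 28.0% of all 18025 measured genes were. Lower calls numbered 10 (11.6%), against 22.8% of all measured genes, and the other 46 lay within 2-fold. The median log2 ratio was 0.53, and 0.02 over all measured genes. At 4-fold, 16 genes (18.6%) were higher and 2 (2.33%) lower, where 17.6% and 8.59% of all measured genes were, so that the share of higher genes was close to the background. Without the 18 genes grouped here as of the CDC42 type or of chaperone, splicing and transcription functions, 28 of 68 (41.2%) were higher at 2-fold and 6 (8.82%) lower. The septin gene listed as CDC10 stayed among the 68. Together the 87 genes held 0.320% of all counts of the younger calf [0.318 to 0.322] and 0.528% of those of the older [0.525 to 0.531]. Those are shares of raw counts, with CCNY alone at 3028 and 15019 counts. In TMM-scaled CPM the 87 genes summed to 3746 and 4514.

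The scaling between the libraries moved these counts. Log2 ratios shifted by 0.45 with plain library totals, 0.35 with reference genes, -0.10 with upper-quartile scaling and 0.02 with DESeq2 size factors. The share of higher genes among those called was 75.0% with TMM, 89.4% with plain totals, 87.8% with reference genes and 68.4% with the upper quartile. The lower calls of CCNG1, CDK4, CDK5, CDC42EP4 and CDC42SE1 were lost with plain totals and with reference genes, and the higher calls of CCNJ, CDK8, CDC27 and BUB3 with the upper quartile. Shares within a library, given below for pairs of related genes, do not depend on the scaling.

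**Figure D1:**
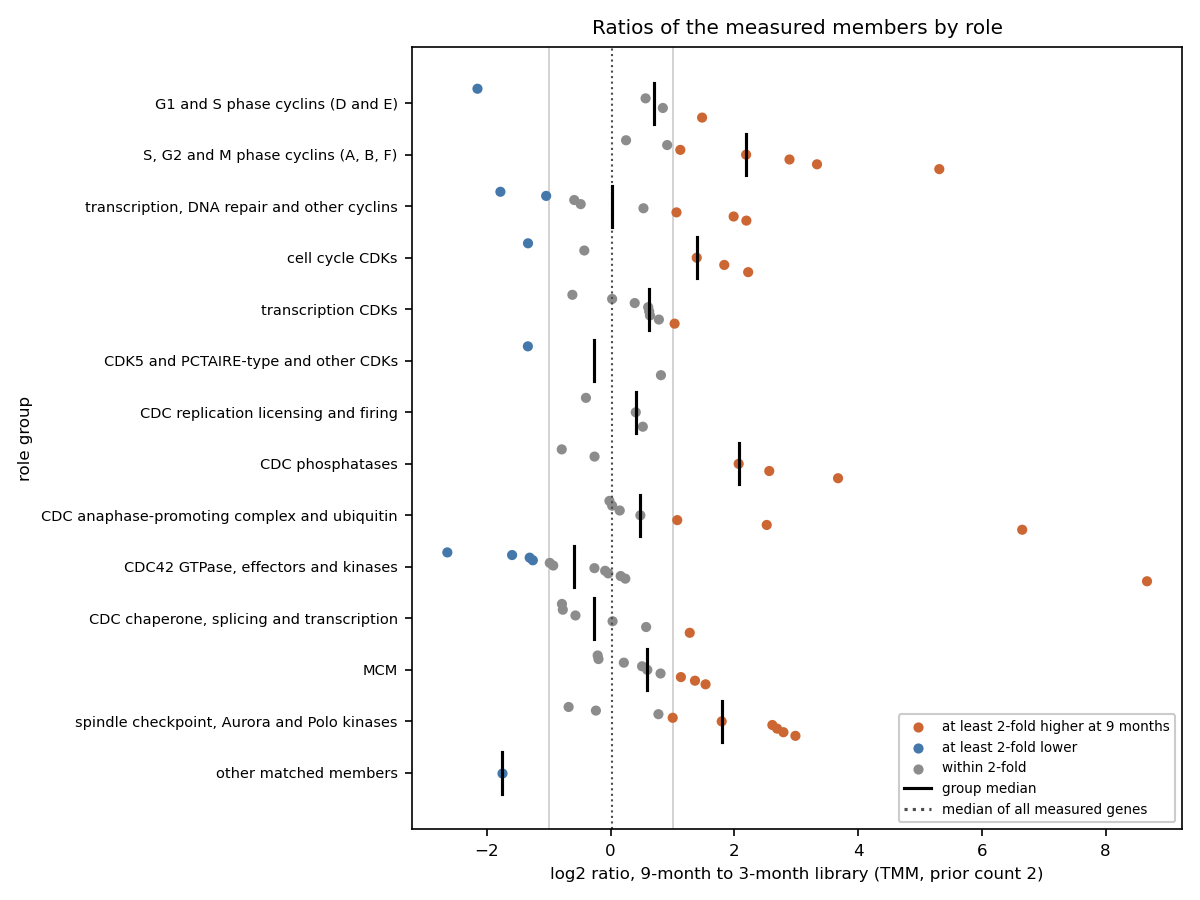
Log2 ratio of the 9-month to the 3-month library for the 86 measured genes (points, coloured by call), by role, with the median of each role (black bar) and of all measured genes (dotted line); grey lines mark 2-fold. The A, B and F cyclins with CCNB1IP1, the CDC phosphatases and the checkpoint, Aurora and Polo kinases have medians of 2.19, 2.07 and 1.79, and the genes of the CDC42 type a median of -0.59.

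The cyclins that act from DNA copying to division were mostly higher. Together with CCNB1IP1, which is no cyclin itself, 5 of 7 genes (71.4%, against the background of 28.0%) were higher and 0 lower. The median log2 ratio of the 7 was 2.19. The 6 cyclins alone had 4 higher and a median of 1.66, an alternative chosen after seeing the data. CCNA1 (ENSBTAG00000007284) had 52 counts in the younger and 2318 in the older calf, or 1.62 and 66.5 CPM. Its partner gene CCNA2, the cyclin A of most dividing cells, had 398 and 513 counts, or 12.4 and 14.7 CPM, a ratio of 1.19 [1.04 to 1.36]. The order of the A cyclins was thus opposite in the libraries. Per length, CCNA1 made up 12.9% of the pair in the younger calf [9.83 to 16.6] and 83.7% in the older [82.3 to 85.0]. CCNA2 overlaps EXOSC9 in assembly ARS-UCD2.0, which had 2358 and 1568 counts and a log2 ratio of -0.70, against 0.25 for CCNA2. The value of CCNA2 and the shares and order of the pair are therefore uncertain where counting took no account of strand. In RPKM CCNA1 stood above 23.5% of measured genes in the younger calf and above 85.6% in the older, while CCNA2 stood above 48.9% and 48.6%.

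The B cyclins carry the cell into division with CDK1. CCNB2 went from 9.55 to 71.2 CPM, a 7.45-fold difference [6.62 to 8.42], and CCNB1 from 11.6 to 53.1 CPM, a 4.58-fold difference [4.09 to 5.13]. CCNB3, a cyclin known from meiosis, stood at 26.4 and 49.7 CPM and remained within 2-fold at 1.89 [1.74 to 2.05], though it passed 2-fold with plain totals (2.58) and with reference genes (2.40). In the 3-month library the 3 B cyclins were at similar levels per length, at 6.76, 5.43 and 5.74 RPKM for CCNB1, CCNB2 and CCNB3. They spread out in the 9-month library, at 42.3, 55.3 and 14.8 RPKM. CCNB1 made up 55.5% of CCNB1 and CCNB2 per length in the younger calf [51.6 to 59.2] and 43.3% in the older [41.9 to 44.8]. CCNB1IP1, which acts in meiotic crossing-over, was 10.3-fold higher [8.27 to 12.9], from 89 to 992 counts, and CCNF, a cyclin that directs protein destruction, was 2.20-fold higher [1.79 to 2.71].

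The cyclins of early division showed no common direction. CCND3 stood at 57.1 CPM in the younger and 12.8 CPM in the older calf. CCNE2 stood at 10.4 CPM in the younger and 29.2 CPM in the older calf, a 2.80-fold difference [2.47 to 3.17]. CCND1 had only 48 and 95 counts and a ratio of 1.83 [1.28 to 2.64], and CCNE1 had 73 and 118 counts and a ratio of 1.49 [1.10 to 2.03]. Of the lettered division cyclins kept here, CCND3 was the most abundant per length in the 3-month library at 24.6 RPKM, and CCNB2 in the 9-month library at 55.3 RPKM. CCND1 made up 4.25% of CCND1 and CCND3 per length in the younger calf [3.16 to 5.59] and 26.6% in the older [22.3 to 31.2]. CCNE1 made up 21.9% of the E cyclins [17.7 to 26.6] and then 13.0% [10.9 to 15.3]. CCNE2 overlaps INTS8 in assembly ARS-UCD2.0, which had 2362 and 2056 counts. The value of CCNE2 and the shares of the E cyclins are therefore uncertain where counting took no account of strand.

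**Figure D2:**
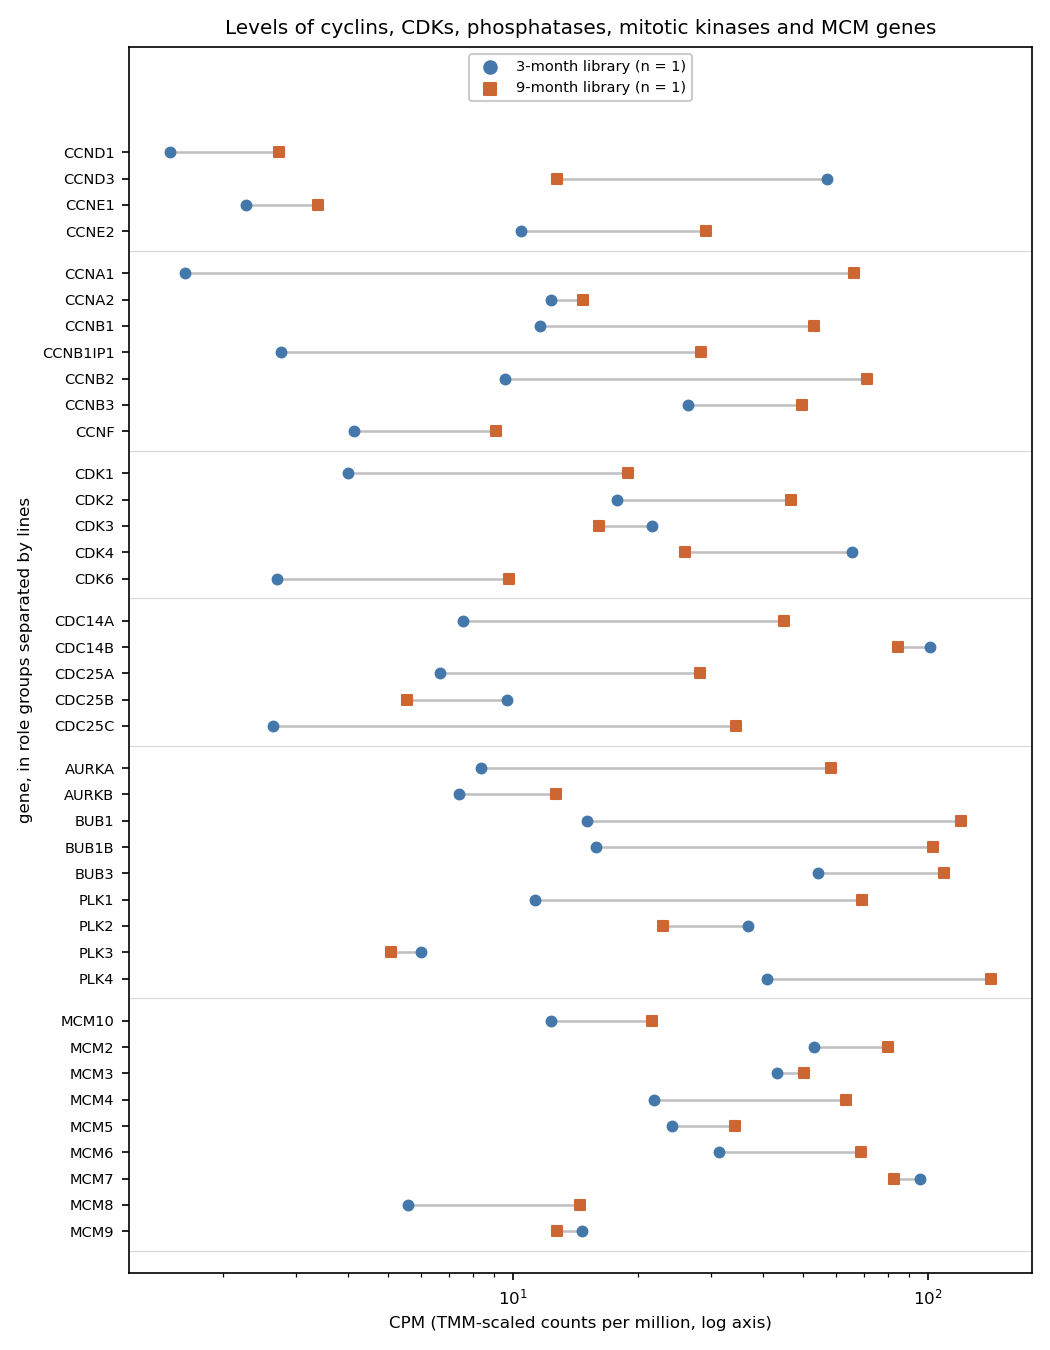
TMM-scaled CPM on a log axis of the division cyclins, cell cycle CDKs, CDC25 and CDC14 phosphatases, checkpoint, Aurora and Polo kinases and MCM genes in the 3-month (circles) and 9-month library (squares), 1 library per age and so without error bars. The longest line is that of CCNA1, from 1.62 to 66.5 CPM, and CCND3 and CDK4 have the longest lines among the genes that run the other way.

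Among the 5 cell cycle CDKs 3 (60.0%) were higher and 1 (20.0%) lower, against the background of 28.0% and 22.8%. CDK1, the kinase of mitosis, went from 4.01 to 18.9 CPM, a 4.72-fold difference [3.90 to 5.75]. CDK2 went from 17.8 to 46.8 CPM, a 2.63-fold difference [2.39 to 2.90], and CDK6 from 2.71 to 9.82 CPM, 3.63-fold [2.86 to 4.64]. CDK4 stood at 65.8 CPM in the younger and 26.0 CPM in the older calf. CDK3 lay within 2-fold, at 21.7 and 16.1 CPM. CDK4, at 42.0 RPKM, was the most abundant of the 5 per length in the 3-month library, and CDK2, at 40.0 RPKM, in the 9-month library. CDK4 made up 95.4% of CDK4 and CDK6 per length in the younger calf [94.3 to 96.3] and 69.2% in the older [66.5 to 71.9].

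The CDC25 phosphatases remove the inhibiting phosphates from CDKs, and the 3 genes differed. CDC25C, which acts on CDK1, went from 85 to 1201 counts and was 13.04-fold higher [10.5 to 16.4]. It overlaps SLBP2 and FAM53C in assembly ARS-UCD2.0. FAM53C had 2822 and 4321 counts and a log2 ratio of 0.50, against 3.67 for CDC25C. SLBP2 had 2 and 55 counts and a log2 ratio of 3.75, similar to that of CDC25C. CDC25A, which acts at the start of DNA copying, was 4.22-fold higher [3.64 to 4.92]. CDC25B had 311 and 194 counts and stood 1.74-fold lower [1.45 to 2.09], within the 2-fold limit. Per length CDC25C was the rarest of the 3 in the 3-month library at 0.936 RPKM, against 2.71 for CDC25A and 2.79 for CDC25B. It was the most abundant in the 9-month library at 16.7 RPKM, close to CDC25A at 15.7 and above CDC25B at 2.20. Of the CDC14 phosphatases, relatives of the yeast enzyme that ends mitosis, CDC14A was 5.95-fold higher [5.20 to 6.84] while CDC14B stood at 102 and 84.7 CPM. CDC14A made up 5.79% of the pair per length [5.10 to 6.54] and then 30.4% [29.1 to 31.8].

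The genes of spindle and checkpoint were mostly higher, with 6 of 9 (66.7%, against the background of 28.0%) called higher and 0 lower. The median log2 ratio of the 9 was 1.79. BUB1 and BUB1B, which hold anaphase back until chromosomes attach, went from 15.1 to 120 CPM and from 15.9 to 103 CPM, 7.95-fold [7.24 to 8.75] and 6.47-fold [5.90 to 7.12]. They kept near-equal levels per length, BUB1 making up 48.7% of the pair in the younger calf [45.6 to 51.9] and 53.9% in the older [52.8 to 55.0]. BUB3, their binding partner, was already at 54.4 CPM and reached 109 CPM, 2.005-fold [1.89 to 2.12], which is at the limit of a call. Per length BUB3 was the most abundant of the 9 genes in both libraries, at 30.2 and 82.9 RPKM.

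AURKA, the Aurora kinase of spindle poles, was 6.97-fold higher [6.13 to 7.94], from 270 to 2039 counts. AURKB, the Aurora kinase of centromeres, had 238 and 442 counts and a ratio of 1.71 [1.46 to 2.01], with 2.34 under plain totals and 2.18 under reference genes. AURKA made up 55.1% of these 2 kinases per length in the younger calf [50.7 to 59.5] and 83.3% in the older [81.8 to 84.7]. PLK1, which drives mitotic entry, was 6.15-fold higher [5.50 to 6.88], and PLK4, which duplicates centrioles, 3.47-fold higher [3.27 to 3.69], at 40.9 and 142 CPM. PLK2 and PLK3, which respond to stress, stood at 36.9 and 23.0 CPM and at 6.004 and 5.08 CPM, both within 2-fold. Per length PLK2 led the 4 Polo kinases in the 3-month library at 11.4 RPKM, just above PLK4 at 10.2. In the 9-month library PLK4 and PLK1 led at 48.3 and 37.4 RPKM and PLK2 stood at 9.77.

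**Figure D3:**
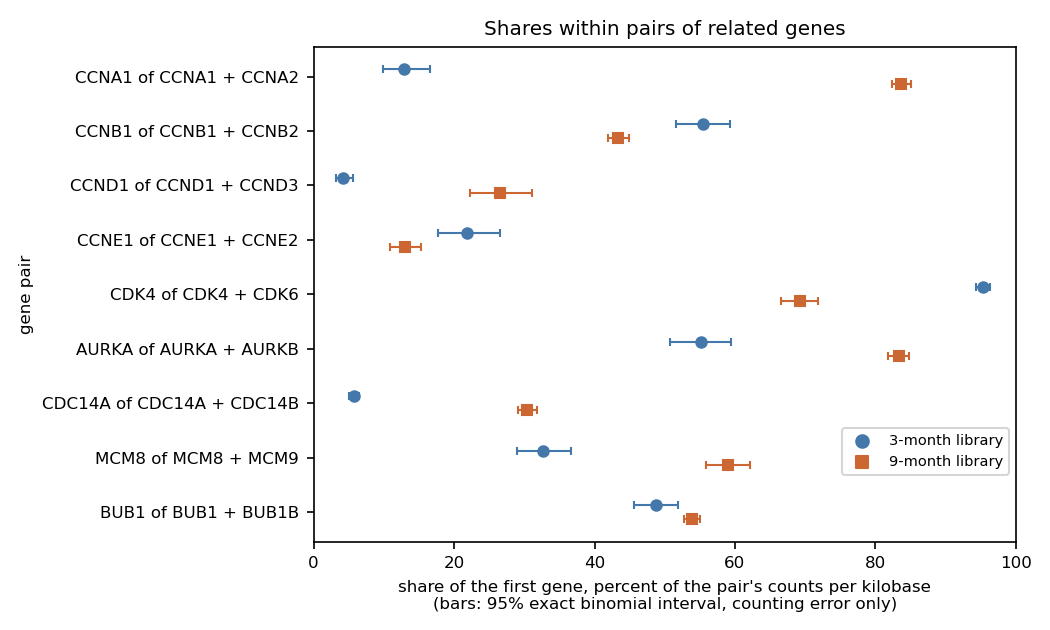
Share of the first gene in 9 pairs of related genes, in percent of the pair's counts per kilobase, in the 3-month (circles) and 9-month library (squares), with 95% exact binomial intervals for counting error. CCNA1 moves from 12.9% to 83.7% of the A cyclins, while BUB1 goes from 48.7% to 53.9% of its pair.

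CDC20 activates the anaphase-promoting complex, whose subunits CDC16, CDC23, CDC26 and CDC27 also fall under the rule. CDC20 itself was 5.77-fold higher [5.21 to 6.39], at 13.8 and 79.5 CPM. Its relative CDC20B had 0 counts in the younger and 207 in the older calf. CDC20B was 63.7-fold higher against a floor of 3 counts in the younger, with an exact lower bound of 51.3. It overlaps GPX8 and GZMA in ARS-UCD2.0, whose log2 ratios were -3.39 and -0.77. CDC27 was 2.11-fold higher [1.99 to 2.23], and CDC16, CDC23 and CDC26 were at ratios of 1.11, 0.99 and 1.40. CDC34, a ubiquitin-conjugating enzyme, stood at 77.6 and 78.9 CPM and was the most abundant of these 7 genes per length in both libraries, at 84.0 and 117 RPKM. The median of the 7 was 0.48, also with CDC20B set at its ratio against the floor.

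Genes of DNA replication differed less than those of division. Of 9 MCM genes 3 were higher, which is 33.3% against the background of 28.0%, and 0 were lower, with a median log2 ratio of 0.59. MCM2 to MCM7 form the ring that unwinds DNA at the fork. Within the ring MCM4 was 2.90-fold higher [2.66 to 3.16] and MCM6 2.20-fold higher [2.04 to 2.37]. MCM2, MCM3, MCM5 and MCM7 were at ratios of 1.51, 1.16, 1.42 and 0.86. Per length the most abundant of the ring genes was MCM7 in the 3-month library, at 33.5 RPKM, and MCM4 in the 9-month library, at 58.2 RPKM. The most abundant was 3.92 times the least abundant, MCM5, in the younger calf and 3.51 times in the older.

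MCM8 and MCM9 act together in recombination repair. MCM8 was 2.59-fold higher [2.18 to 3.09], from 180 to 505 counts, and MCM9 had 472 and 446 counts. MCM8 made up 32.7% of the pair per length [28.9 to 36.6] and then 59.1% [55.9 to 62.1]. MCM8 overlaps TRMT6 in ARS-UCD2.0, which had a similar log2 ratio (1.15 against 1.36), so its value is uncertain where counting took no account of strand. The same holds for MCM9, which overlaps ASF1A. ASF1A had 825 and 498 counts and a log2 ratio of -0.84, against -0.20 for MCM9. MCM10, which helps to start the fork, was at a ratio of 1.75 [1.55 to 1.98]. CDC6, which loads the MCM ring, CDC45, listed as CDC45L, and CDC7, the kinase that fires origins, listed as CDC7L1, all lay within 2-fold, at ratios of 1.33, 1.44 and 0.76.

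Cyclins of transcription, repair and other functions were centred near the other genes. Of the 8 measured 3 (37.5%) were higher and 2 (25.0%) lower, near the background of 28.0% and 22.8%. Their median log2 ratio of 0.02 turned to -0.08 with the upper quartile. CCNY, a membrane-bound cyclin, was the exception in size, at 94.2 and 431 CPM, 4.58-fold higher [4.40 to 4.76]. At 342 RPKM it was the most abundant of all 87 genes in the 9-month library. CCNK, the cyclin of CDK12 and CDK13, was 3.98-fold higher [3.65 to 4.34], while CDK12 and CDK13 were at ratios of 1.55 and 1.02. CCNJ was 2.11-fold higher [1.66 to 2.71]. CCNG2 and CCNG1, cyclins that act in growth arrest and the damage response, were 3.45-fold [3.07 to 3.88] and 2.06-fold [1.99 to 2.13] lower. CCNG1 led this group in the 3-month library at 108 RPKM. CCNC, CCNT1 and CCNT2, partners of the transcription CDKs, were at ratios of 0.66, 1.45 and 0.71. CCNO had 2 counts in each library, below the minimum, and no ratio is given.

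Of the 8 CDKs linked to transcription 1 (12.5%, against the background of 28.0%) was called higher and 0 were lower. The higher gene was CDK8, a kinase of the Mediator complex, at 2.05-fold [1.84 to 2.29]. The median log2 ratio of the 8 was 0.61, with 7 of 8 above 0, against 0.02 over all measured genes. The other 7 had ratios from 0.65 for CDK9 to 1.72 for CDK19. CDK9, which releases paused polymerase, was the most abundant of the 8 per length in both libraries, at 59.7 and 53.2 RPKM. CDK5, a kinase best known from neurons, was 2.54-fold lower [2.18 to 2.97], and CDK17 was at a ratio of 1.76.

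Most genes that carry the CDC name for other functions lay within 2-fold. Of 12 genes of the small GTPase CDC42, its effectors and kinases 4 (33.3%, against the background of 22.8%) were lower and 1 higher, with a median log2 ratio of -0.59. With plain totals or reference genes 2 of the 12 were lower, and with the upper quartile 6. CDC42, which organises actin and cell polarity, stood at 184 and 93.1 CPM, just within the limit at 1.98-fold lower [1.89 to 2.07]. At 137 RPKM it was the most abundant of the 87 genes in the 3-month library. The effectors CDC42EP5, CDC42EP1, CDC42EP4 and CDC42SE1 were 6.62-fold [4.42 to 10.3], 3.02-fold [2.79 to 3.28], 2.39-fold [2.20 to 2.61] and 2.48-fold [2.34 to 2.63] lower. The septin gene listed as CDC10, now SEPTIN7, was 3.36-fold lower [3.25 to 3.48], at 408 and 121 CPM.

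CDC42BPA, a kinase that CDC42 activates, was listed under 2 identifiers with unlike values. ENSBTAG00000022777, with a length of 6026 bases, had 2811 and 2540 counts. ENSBTAG00000004778, with a length of 1662 bases, had 1 count in the younger and 1285 in the older calf, a ratio of 1186 [212 to 46871]. The RefSeq table of ARS-UCD2.0 lists a single gene of that symbol. Of the 6 genes of chaperone, splicing and transcription functions, CDC5L, a splicing factor, was 2.43-fold higher [2.29 to 2.57] and the others had ratios from 0.58 to 1.49. CDC37, which hands kinases to a chaperone, led them per length in the younger calf, at 60.3 RPKM, and CDC5L in the older, at 51.3 RPKM.

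Lists of other genes of the division pathway were set beside these. Of 18 measured genes of the kinetochore and spindle checkpoint 11 (61.1%, against the background of 28.0%) were higher and 0 lower. Their median log2 ratio was 1.22. TTK, the checkpoint kinase upstream of BUB1, went from 3.92 to 20.2 CPM, 5.16-fold [4.26 to 6.28]. CENPF and NUF2, proteins of the kinetochore, were 3.75-fold [3.55 to 3.96] and 3.35-fold [3.05 to 3.68] higher. Of 16 genes of the anaphase-promoting complex and its regulators 7 (43.8%, against the background of 28.0%) were higher and 0 lower. FBXO43, which inhibits the complex in meiosis, had 24 and 2083 counts and was 80.1-fold higher [53.7 to 125]. Its relative FBXO5, which acts in mitotic cells, had 191 and 197 counts and a ratio of 0.95 [0.78 to 1.17]. PTTG1, the securin that the complex destroys, was 19.3-fold higher [16.7 to 22.5], and ESPL1, the separase it guards, 6.94-fold [6.36 to 7.58]. FBXO5 is named after its values were seen.

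Of the 4 chromosomal passenger and Aurora partner genes found, 2 were higher and 0 lower, against the background of 28.0% and 22.8%. The other 2 lay within 2-fold, and a list of 4 genes is too short to weigh against those shares. The higher genes, which place AURKB on centromeres, were BIRC5 at 5.74-fold [5.21 to 6.32] and CDCA8 at 3.04-fold [2.68 to 3.47]. Of 15 genes that switch CDKs on or brake them 7 (46.7%) were higher and 1 (6.67%) lower, against the background of 28.0% and 22.8%. SPDYA, which activates CDK2 in meiosis without a cyclin, was 20.6-fold higher [16.5 to 26.1]. PKMYT1, a kinase that holds CDK1 inactive, was 19.6-fold higher [16.02 to 24.3]. FOXM1, a transcription factor of B cyclins and PLK1, was 12.6-fold higher [10.9 to 14.6]. Activators and brakes of CDK1 were thus both among the higher genes.

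Of 8 CDK inhibitors 4 were higher and 2 lower, against the background of 28.0% and 22.8%. The share of lower genes was thus close to the background. CDKN3, a phosphatase that acts on CDKs, was 25.2-fold higher [18.4 to 35.5] and CDKN2B, an inhibitor of CDK4 and CDK6, 19.8-fold [11.8 to 35.8]. CDKN2C, another inhibitor of CDK4 and CDK6, was 5.86-fold higher [5.25 to 6.55], at 11.7 and 68.5 CPM. CDKN1C, an inhibitor of G1 CDKs, had 2860 and 178 counts and was 17.4-fold lower [14.96 to 20.4]. CDKN1B, which restrains CDK2, was 2.41-fold lower [2.25 to 2.58]. Of 13 genes of the RB and E2F families 5 (38.5%, against the background of 28.0%) were higher and 0 lower. Among the higher were E2F7 at 7.21-fold [5.42 to 9.76], TFDP2 at 4.28-fold [3.77 to 4.88] and E2F8 at 3.02-fold [2.45 to 3.75].

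Of 23 genes of origin licensing and the replication fork 5 (21.7%) were higher and 2 (8.70%) lower, with a median log2 ratio of 0.17. The higher share was below the background of 28.0%. ORC1, which marks origins, and DBF4, the partner of CDC7, were 9.44-fold [7.77 to 11.6] and 7.69-fold [6.98 to 8.50] higher. GINS4, of the fork helicase, was 4.46-fold higher [3.69 to 5.41]. ORC2, another subunit of the same complex as ORC1, was 2.98-fold lower [2.84 to 3.13], and RFC2, of the clamp loader, 2.55-fold lower [2.21 to 2.94]. Of 6 general proliferation markers 2 (33.3%, against the background of 28.0%) were higher, MKI67 at 2.30-fold [2.18 to 2.42] and TOP2A at 2.64-fold [2.53 to 2.76]. RRM2, a subunit of ribonucleotide reductase, was 2.11-fold lower [1.88 to 2.36], and PCNA, TYMS and RRM1 lay within 2-fold at ratios of 1.34, 1.49 and 1.04.

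**Figure D4:**
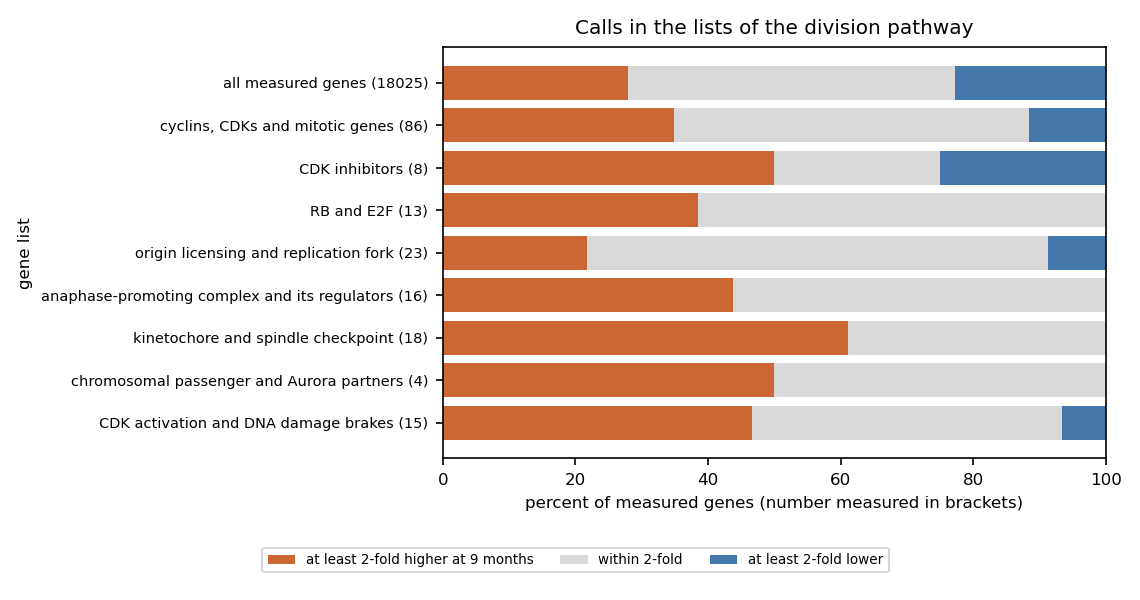
Percent of measured genes at least 2-fold higher (orange), within 2-fold (grey) and at least 2-fold lower (blue) in the 9-month library, for all measured genes, the 86 genes described here and 7 lists of the division pathway. The kinetochore and checkpoint list has 61.1% higher, and the origin and fork list 21.7%, against 28.0% of all genes.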

How the data were processed

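RNA from seminiferous tubules was sequenced in 1 library per age. The submitters' processing notes name the genome build UMD3.1, the trimmer Trimmomatic 0.33 and the aligner STAR 2.4.0. For the counting program, the annotation, the strand setting and the handling of multiply aligned reads, nothing is given in the sources used here. The deposited tables have no header. Of the deposited columns 1 is raw counts, 1 the gene length and 1 RPKM, since the last equals counts over that length and over the library's total, to within 0.000496%. Raw counts were scaled by TMM in edgeR 4.0.16 under R 4.3.3, on genes with at least 10 counts over both libraries, which gave factors of 0.855 and 1.17. Other scalings were plain totals, the upper quartile, DESeq2 1.42.0 size factors and 14 reference genes. Log2 ratios carry a prior count of 2. Intervals of ratios are conditional binomial (Clopper-Pearson) and those of shares exact binomial; PCR reads need not be independent molecules. The floor is 3 counts per library, 0.0933 CPM at 3 months and 0.0861 CPM at 9 months. Without replicates no test across genes was run. Gene symbols were taken as listed; 4 of the 87 are older symbols, matched through RefSeq synonyms (ARS-UCD2.0), which also gave overlaps of genes, without strand. That table is not of the authors' build, so no coordinates are printed, and no sequences are used here; the planned search for promoter motifs was not run.

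Members and lists were chosen with earlier results of these data known. Named by rule were the A, B, D and E cyclins, CDK1, CDK2, CDK4, CDK6, the Aurora, Polo, BUB, CDC20, CDC25 and MCM genes whatever their values, other members at least 2-fold different with at least 5 CPM, the most abundant member per length of each role, and up to 3 genes each way of the other lists. Of the genes named by that rule 1 is not reported here. Members outside the rule are given for completeness and were chosen after their values were seen. Python 3.11.15 (scipy 1.17.1, pandas 2.3.3) computed the ratios and drew the figures (matplotlib 3.10.9).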

Additional observations from a re-analysis of the deposited data

How the results depend on the processing

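With plain library totals 42 of the 86 genes were higher and 5 lower, with a median log2 ratio of 0.98, and 2643 of all measured genes were lower (4110 with TMM). With reference genes 5 were lower and the median was 0.87, and with the upper quartile it was 0.42. A limit of 4-fold left 16 higher and 2 lower. Without the CDC42-type and chaperone, splicing and transcription genes 6 were lower and the median was 0.70. DESeq2 size factors, minimums of 1 and 50 counts, prior counts of 0.5 and 10 and, chosen after seeing the data, the addition of genes listed under older symbols left the counts of higher and lower genes that they bear on within 1.5 times and the median within 0.1. Of 85 ratios, 17 crossed the limit of a call with plain totals, 11 with reference genes, 6 with the upper quartile and 0 with DESeq2 size factors. Medians of CDK5 with CDK17 and of the chaperone, splicing and transcription genes, at -0.26 and -0.27, turned to 0.19 and 0.18 with plain totals and to 0.08 and 0.08 with reference genes. Without the length correction the share of CCND1 in its pair was 2.55% and 17.6%, and that of MCM8 27.6% and 53.1%. Depth limits CCNO, CDC20B and the short CDC42BPA model most. No paired analysis was possible because each age has 1 library.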

Other observations

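Genes that RefSeq now names as CDKs but that the tables list under older symbols fall outside the rule. CDK20, listed as CCRK, had 935 counts in the younger and 2762 in the older calf and was 2.73-fold higher [2.53 to 2.94]. CDK16, listed as PCTK1, had 3400 and 2190 counts and a ratio of 0.59 [0.56 to 0.63]. CDK18, listed as PCTK3, had 83 and 11 counts and a ratio of 0.12 [0.06 to 0.23], which is lower.

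In assembly ARS-UCD2.0, 19 of the 86 symbols overlap another protein-coding gene. Among them CDC37L1, with 864 and 957 counts, overlaps SPATA6L, with 27 and 992 counts, and CDC27 overlaps MYL4, with 6 and 106 counts. CDC73 overlaps B3GALT2, which had 998 and 96 counts and a log2 ratio of -3.47, against 0.57 for CDC73. CCNE2 overlaps INTS8, with a log2 ratio of -0.32 against 1.48. CCND1 overlaps LTO1 and CCNY overlaps LOC107133032, neither of which has a value here.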
